A study of Mus musculus with 2 samples.

Results

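The miR-34 family was followed in cultured fibro-adipogenic progenitors (FAPs), the mesenchymal cells of skeletal muscle from which adipocytes and fibroblasts arise. Its members were taken by name, as every arm of miR-34a, miR-34b and miR-34c in the deposited miRNA table, which gave 6 arms of 628 listed miRNAs. An arm is the mature miRNA cut from the 5p or the 3p side of a hairpin precursor. Small RNA was sequenced from FAPs that had been obtained from wild-type C57Bl/6 skeletal muscle by a sort for Sca1+ cells. The cells were grown in DMEM with 20% FBS, 10% HS and 5 ng/ml FGF, and then kept for 24 h in basal medium (BM), which held 10% HS, or in adipogenic differentiation medium (ADM), whose composition the sources used here do not state. They do not state the number, age or sex of the mice either, nor whether cells of several mice were pooled. There was 1 library for each medium, so no spread between cultures could be measured, no p-value was computed, and each difference below is one between 2 libraries, which cannot be told apart from a difference between any 2 cultures.

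miR-34 miRNAs are known as direct transcriptional targets of the tumour suppressor p53. In that setting they repress mRNAs of cell cycle and survival genes such as cyclins, cyclin-dependent kinases, Met, Bcl2 and Sirt1. miR-34a has a transcript of its own and is the widely expressed member, whereas miR-34b and miR-34c are cut from a shared transcript and are best known from testis and from epithelia with motile cilia. In mouse adipose tissue miR-34a has been reported to be raised in obesity. A miRNA chooses its targets mainly through its seed, bases 2 to 8 counted from the 5′ end, and the miR-449 miRNAs carry the same seed as the miR-34 5p arms.

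The mature sequences are shown because the seeds separate the 5p arms, which share targets with miR-449, from the 3p arms. They are taken from RefSeq (GRCm38.p6), written 5′ to 3′ with the seed in capitals, for 5 of the 6 arms and for the miR-449 arms that were measured; miR-34c-5p is named only.
miR-34a-5p: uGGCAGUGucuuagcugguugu
miR-34b-5p: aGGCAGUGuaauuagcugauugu
miR-449a-5p: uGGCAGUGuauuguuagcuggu
miR-449c-5p: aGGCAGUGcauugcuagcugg
miR-34b-3p: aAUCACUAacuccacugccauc
miR-34c-3p: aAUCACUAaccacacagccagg
miR-34a-3p: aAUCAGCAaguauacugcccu
Among listed miRNAs with a mature entry in the RefSeq table, 4 carried the seed GGCAGUG, and they are the first 4 lines. miR-34a-5p and miR-34b-5p were the same at 11 of 22 bases compared from the 5′ end without gaps. miR-34b-3p and miR-34c-3p share the seed AUCACUA, which no other entry of the RefSeq table carried. They were the same at 17 of 22 bases, including the first 10. miR-34a-3p has a seed of its own, AUCAGCA.

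The hairpins show how the arms of a precursor lie, with both mature arms in capitals.
Mir34a: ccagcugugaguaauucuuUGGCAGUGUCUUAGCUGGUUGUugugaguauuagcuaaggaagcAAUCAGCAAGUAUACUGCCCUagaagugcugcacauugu
Mir34b: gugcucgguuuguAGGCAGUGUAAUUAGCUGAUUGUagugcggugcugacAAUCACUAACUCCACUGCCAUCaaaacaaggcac
The Mir34a hairpin lies on the plus strand of chromosome 4 at 150068454-150068555 (GRCm38). Its last 17 bases overlap an exon of Gm37795, a transcript model on the same strand that GENCODE M21 keeps in its class TEC. Mir34b, at 51103562-51103645, and Mir34c, at 51103034-51103110, lie 451 bases apart on the minus strand of chromosome 9. Both fall in an intron of Btg4, a protein-coding gene on the opposite strand. The miR-449 hairpins lie on chromosome 13, in an intron of Cdc20b.

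The libraries held 755193 reads in BM and 790617 in ADM, recovered from the deposited percent values, and levels are given in reads per 1000000 (RPM). A single read is worth 1.32 RPM in BM and 1.26 RPM in ADM. Intervals are 95% counting intervals (exact Clopper-Pearson unless said otherwise). The libraries carried no stated molecular identifiers, so that PCR copies count as reads, and both intervals and limits hold counting error only. Folds between different miRNAs or arms are therefore folds of reads. Whether a molecule of each sequence gives equally many reads was not tested. The 11 arms on a list of mesenchymal markers (miR-199, miR-214, miR-143, miR-145a and miR-21a) were all above 10 RPM and took 17.2% of the reads in BM and 21.6% in ADM. How specific each is for mesenchymal cells was not tested, and miR-21a-5p was the most abundant of them in both libraries. These arms went both ways, with 5 of 11 higher in ADM and 6 lower. The larger sum came from miR-21a-5p (97173 and 130148 RPM) and miR-143-3p (28650 and 53504 RPM), while every listed arm of miR-199 and miR-214 was lower. The 7 listed arms of myogenic miRNAs came to 3072 and 312.4 RPM (BM and ADM), and the 2 arms of the endothelial miR-126 to 116.5 and 256.8 RPM. Nearly all of the myogenic sum was miR-133a-3p, at 3001 and 292.2 RPM, and only 2 of the 7 arms had a mean of at least 10 RPM. Listed epithelial markers had 20 and 16 reads, neural ones 31 and 20, and haematopoietic ones 1 and 4. The part of these cell types in the values below was not tested, and in bulk RNA a different number of cells of a type and a different amount of a miRNA per cell cannot be told apart.

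Of the miR-34 arms, miR-34c-5p (mmu-miR-34c-5p in the table) was by far the most abundant in both libraries. It had 6176 reads in BM and 6898 in ADM, or 8178 RPM (7976 to 8384) and 8725 RPM (8521 to 8932). These levels put it at rank 28 of all listed miRNAs in BM and at rank 26 in ADM. The widely expressed member, miR-34a-5p (mmu-miR-34a-5p), was at a far lower level than miR-34c-5p in both libraries. It had 72 reads in BM and 132 in ADM, or 95.3 RPM (74.6 to 120.1) and 167.0 RPM (139.7 to 198.0), at ranks 176 and 152. miR-34c-5p thus had 85.8 times the reads of miR-34a-5p in BM (68.0 to 109.8) and 52.3 times in ADM (44.0 to 62.6).

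Between these extremes lay both arms of miR-34b. miR-34b-5p (mmu-miR-34b-5p) had 191 reads in BM and 278 in ADM, or 252.9 RPM (218.3 to 291.4) and 351.6 RPM (311.5 to 395.5). miR-34b-3p (mmu-miR-34b-3p) had 107 and 141 reads, or 141.7 RPM (116.1 to 171.2) and 178.3 RPM (150.1 to 210.3). miR-34c-3p (mmu-miR-34c-3p), the opposite arm of the dominant member, had 58 and 71 reads, or 76.8 RPM (58.3 to 99.3) and 89.8 RPM (70.1 to 113.3). miR-34a-3p had 0 reads in BM, with a counting interval that reaches 4.88 RPM, and 1 read in ADM. Both values lie under the limit of 3 reads (3.97 RPM in BM), so no fold is given for this arm. It alone fell below the minimum mean of 10 RPM used for calls.

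**Figure D1:**
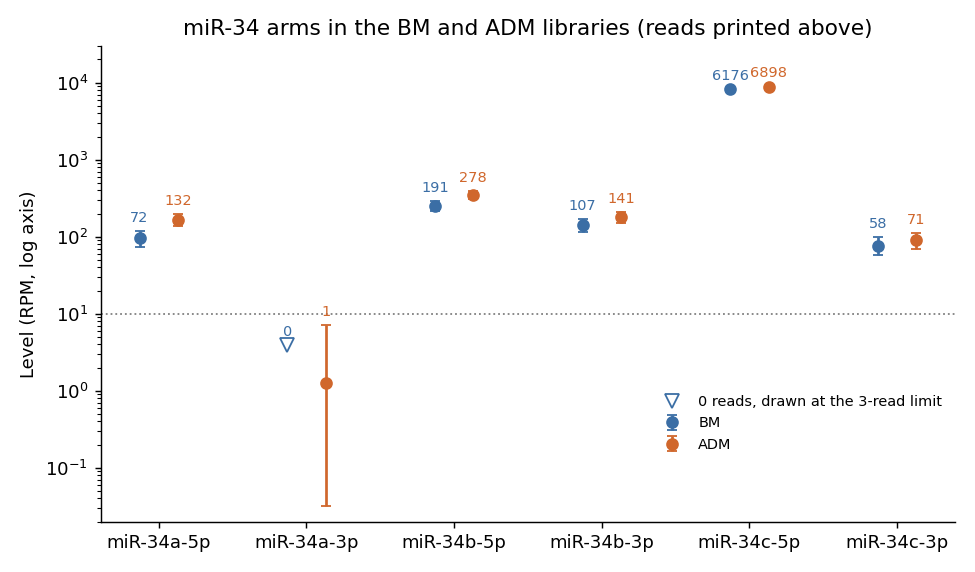
Level of each miR-34 arm in RPM (log axis) in the BM library (blue) and the ADM library (orange), with 95% counting intervals and the read number above each point; the dotted line marks 10 RPM and the open triangle an arm with 0 reads, drawn at the limit of 3 reads. miR-34c-5p stands at 8178 and 8725 RPM, and the other 4 arms above the minimum lie between 76.8 and 351.6 RPM.

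The order of levels was the same in both libraries, from miR-34c-5p through miR-34b-5p, miR-34b-3p and miR-34a-5p to miR-34c-3p. The folds between miR-34a-5p and its neighbours had intervals that overlapped between the libraries, so no change of its place is claimed. In BM, miR-34b-3p exceeded miR-34a-5p by 1.49-fold (1.09 to 2.03), whereas miR-34a-5p and miR-34c-3p did not differ beyond counting error (1.24-fold, 0.866 to 1.79). In ADM, miR-34b-3p and miR-34a-5p did not differ beyond counting error (1.07-fold, 0.836 to 1.36), and miR-34a-5p exceeded miR-34c-3p by 1.86-fold (1.38 to 2.52). miR-34b-5p exceeded miR-34a-5p in both libraries, by 2.65-fold (2.01 to 3.53) in BM and by 2.11-fold (1.71 to 2.61) in ADM.

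The comparison of ADM with BM asks how miRNAs of FAPs differ early after the switch to adipogenic medium. All 5 miR-34 arms above the minimum had a higher level in the ADM library with the reported scaling (4 of 5 once scaled by a trimmed mean of M values), and 0 of 5 were 2-fold apart. The difference was largest for miR-34a-5p, whose ratio of ADM to BM was 1.75 (1.30 to 2.37). miR-34b-5p had a ratio of 1.39 (1.15 to 1.68), miR-34b-3p of 1.26 (0.972 to 1.63) and miR-34c-3p of 1.17 (0.815 to 1.68). The abundant miR-34c-5p had the smallest ratio, 1.07 (1.03 to 1.10), and is the arm whose direction turned with that other scaling. Every one of these arms but miR-34a-5p comes from the transcript shared by miR-34b and miR-34c. The 5 arms are therefore not 5 independent miRNAs, which also holds for the counts and the median below.

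As log2((ADM + 1)/(BM + 1)) in RPM, which understates differences of low levels, the values were 0.80 for miR-34a-5p, 0.47 for miR-34b-5p, 0.33 for miR-34b-3p, 0.22 for miR-34c-3p and 0.09 for miR-34c-5p. Under trimmed-mean scaling miR-34c-5p was at -0.01, while the other 4 arms stayed above 0 under each of the 3 alternative scalings, this one included. The count of arms called at least 2-fold apart was 0 of 5, where 31.2% of the 337 miRNAs above the minimum were called in either direction (10.7% higher and 20.5% lower). Those calls comprised 36 higher and 69 lower miRNAs, or 54 higher and 60 lower when the 10 most abundant miRNAs were left out of the denominator. With a 1.5-fold threshold 1 of 5 arms, miR-34a-5p, was called higher, against a background of 22.3% called higher and 53.1% called in either direction. With the reported scaling the counting interval lay wholly above 1 for 3 of the 5 arms, miR-34a-5p, miR-34b-5p and miR-34c-5p. It lay wholly below 1 for 0 of them, against 29.4% of all 337 above 1 and 60.2% on either side. For miR-34c-5p it does not lie wholly above 1 under trimmed-mean scaling, where the log2 ratio was -0.01. Such intervals narrow with more reads, so abundant miRNAs exclude 1 at smaller differences. A log2 ratio above 0 was found for 48.7% of the 337. The median log2 ratio of the 5 arms was 0.33, and that of all 337 miRNAs was -0.02, with quartiles of -0.81 and 0.498. These 337 include arms of neighbouring hairpins on chromosome 12, which gave 38 of the 58 hairpin pairs compared below. Of those arms, miR-127-3p (-1.77), miR-434-3p (-1.65) and miR-411-5p (-1.59) were lower, while miR-494-3p (0.77) was higher. No share or median without chromosome 12 was computed, so how far these arms set the background was not tested.

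**Figure D2:**
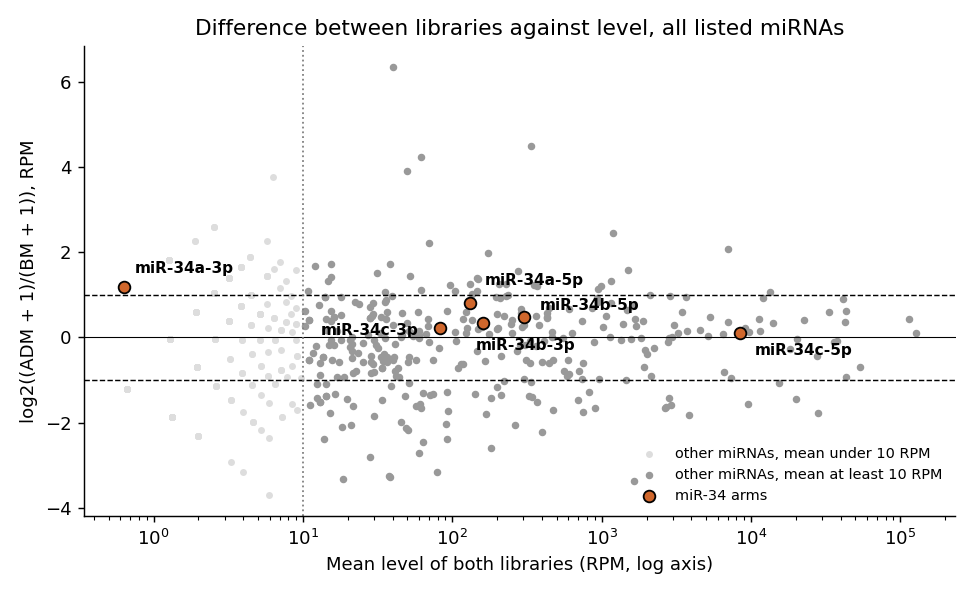
Difference between libraries, log2((ADM + 1)/(BM + 1)) in RPM, against the mean level of both libraries (RPM, log axis) for all 628 listed miRNAs; dashed lines mark 2-fold differences and the dotted line the minimum of 10 RPM. The 5 miR-34 arms above the minimum lie between 0.09 and 0.80, inside the dashed lines; miR-34a-3p, at the far left, rests on 0 and 1 reads.

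Read against miRNAs of like level, all 5 arms lay between the quartiles. Among 60 other miRNAs with a mean level within 2-fold of that of miR-34a-5p, the quartiles of the log2 ratio were -0.65 and 0.81, so that its 0.80 lay just below the upper one. For the 63 such miRNAs around miR-34b-5p the quartiles were -0.70 and 0.53, and its ratio of 0.47 also lay inside them. For the 17 around miR-34c-5p they were 0.02 and 0.43. The share of the 337 miRNAs with a higher log2 ratio was 16.0% for miR-34a-5p and 44.5% for miR-34c-5p.

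The authors' deposited table gives ratios of 1.75 for miR-34a-5p, 1.39 for miR-34b-5p, 1.26 for miR-34b-3p, 1.17 for miR-34c-3p and 1.07 for miR-34c-5p. It also gives a ratio of 1.91 for miR-34a-3p, which rests on 1 read in ADM and on the authors' replacement of 0 by 0.5 read in BM.

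Differences between members of the family do not depend on how a library is scaled. The ratio of the miR-34a locus exceeded that of the miR-34b and miR-34c locus by 0.71 on the log2 scale (normal 95% counting interval 0.29 to 1.12). Between the main arms alone, miR-34a-5p exceeded miR-34c-5p by 0.71 (0.30 to 1.13). Within the shared locus the hairpins were also not alike, since the ratio of the miR-34b hairpin exceeded that of the miR-34c hairpin by 0.33 (0.11 to 0.55). By arm, miR-34b-5p exceeded miR-34c-5p by 0.38 (0.11 to 0.65). The 3p arms, which had fewer reads, did not differ beyond counting error (miR-34b-3p minus miR-34c-3p 0.11, -0.51 to 0.72). miR-34a-5p and miR-34b-5p did not differ beyond counting error in their ratio (0.33, -0.16 to 0.83). In all, 9 such differences were computed, each with its own unadjusted interval. These intervals hold no spread between cultures.

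As a sum, the family took a slightly larger share of reads in ADM with each scaling tried, and its makeup differed. All 6 arms came to 6604 reads in BM and 7521 in ADM, which is 0.874% (0.854 to 0.896%) and 0.951% (0.930 to 0.973%) of the reads. The ratio of these shares was 1.09 (1.05 to 1.12). Under trimmed-mean scaling it was 1.01, close to equal shares, and no interval was computed for it. miR-34c-5p held 93.5% of the family's reads in BM (92.9 to 94.1%) and 91.7% in ADM (91.1 to 92.3%). miR-34a-5p held 1.09% (0.854 to 1.37%) and 1.76% (1.47 to 2.08%), and miR-34b-5p 2.89% (2.50 to 3.33%) and 3.70% (3.28 to 4.15%). Without miR-34c-5p, the other 5 arms summed to 566.7 RPM in BM and 788.0 RPM in ADM, a ratio of 1.39 (1.23 to 1.58).

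Hairpins of miR-34b and miR-34c are cut from a shared transcript, yet their reads differed widely. The miR-34c hairpin had 20.9 times the reads of the miR-34b hairpin in BM (18.6 to 23.6) and 16.6 times in ADM (15.1 to 18.4). Neighbouring hairpins on the same strand within 10000 bases, with a single genomic copy and a mean of at least 10 RPM, gave 58 other pairs. Of these, 11 had a larger difference in level than miR-34b and miR-34c, whose levels were 4.21 apart on the log2 scale against a median of 2.01 over all pairs. Their ratios of ADM to BM were 0.33 apart, and 41 of the 58 pairs were further apart (median 0.57). As 38 pairs lay on chromosome 12, the counts over the other 20 pairs were also taken, and were 5 with a larger difference in level and 13 with a larger difference in ratio.

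Reads were also split unequally between the arms of the hairpins. For miR-34c the 5p arm made up 99.1% of hairpin reads in BM (98.8 to 99.3%) and 99.0% in ADM (98.7 to 99.2%). For miR-34b it made up only 64.1% (58.4 to 69.5%) and 66.3% (61.6 to 70.9%). All 72 reads of the miR-34a hairpin in BM and 132 of 133 in ADM were of the 5p arm. Over the 89 hairpins for which each arm passed the minimum, the major arm had a median share of 88.8%, and 15 had a larger share than miR-34c while 71 had a larger share than miR-34b. Neither hairpin differed between libraries in arm use beyond counting error: on the log2 scale, 5p exceeded 3p in its ADM/BM ratio by 0.14 for miR-34b (-0.31 to 0.59), and the same difference was -0.13 for miR-34c (-0.64 to 0.37). Reads that match more than 1 family member could have been assigned to either, since no source used here states how the authors treated such reads.

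**Figure D3:**
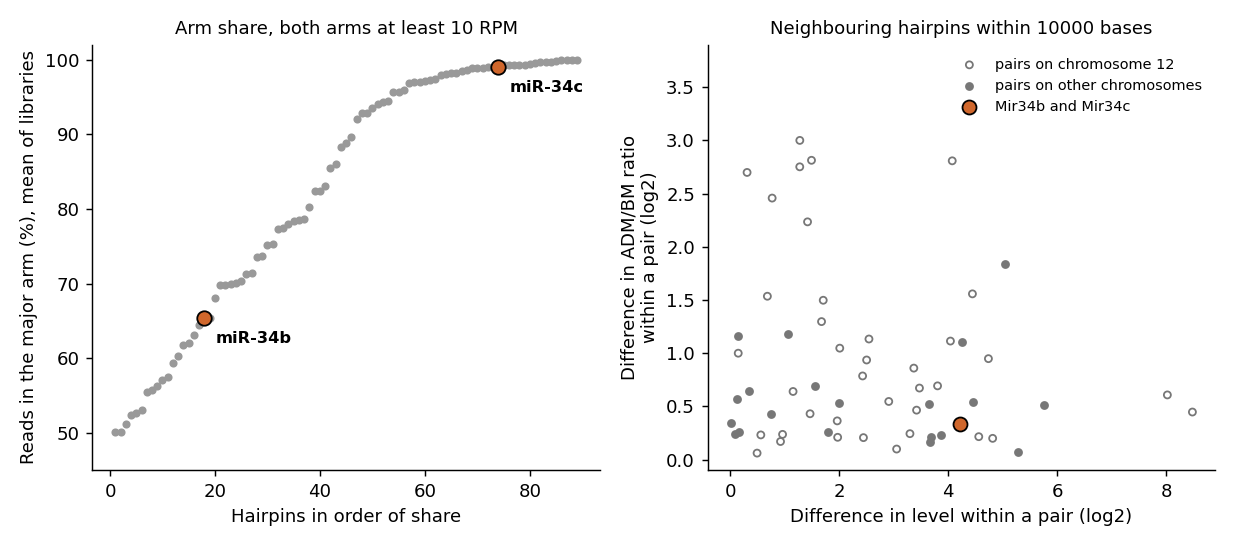
Left, share of hairpin reads in the major arm (percent, mean of both libraries) for 89 hairpins in order of share. Right, difference in level against difference in the ADM/BM ratio (both log2, absolute) for pairs of neighbouring hairpins, with open circles for chromosome 12. miR-34b stands low and miR-34c high in arm share (left), and their pair is 4.21 apart in level but 0.33 apart in ratio (right).

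The miR-449 arms that carry the miR-34 seed had few reads. miR-449a-5p had 1 read in BM and 8 in ADM, a ratio of 7.64 whose interval runs from 1.02 to 339.1. miR-449c-5p had 6 reads and 1, a ratio of 0.159 (0.00346 to 1.31). These miRNAs mark multiciliated epithelium together with miR-34b and miR-34c, and their 7 reads in BM and 9 in ADM stand beside 6532 and 7388 reads of the miR-34b and miR-34c locus. Summed, they were at 9.27 and 11.4 RPM.

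By level in both libraries (Euclidean distance in log2(RPM + 1) over the 2 libraries), the miRNAs nearest to miR-34c-5p were miR-10a-5p (distance 0.165), miR-30d-5p (0.275) and miR-151-3p (0.429). Nearest to miR-34a-5p were miR-494-3p (0.0589), miR-129-5p (0.154) and miR-107-3p (0.165). Those nearest to miR-34b-5p were miR-212-3p, miR-218-5p and miR-148a-5p, at distances of 0.123 to 0.163. For miR-34b-3p they were miR-129-2-3p, miR-106b-3p and miR-5099, at 0.0652 to 0.281. By rank of mean level, miR-34c-5p stood between miR-10a-5p and miR-199a-5p, and the latter had a log2 ratio of -0.95. miR-34a-5p stood between miR-129-5p (1.02) and miR-877-5p (1.25), miR-34b-5p between miR-212-3p (0.30) and miR-431-5p (-0.97), and miR-34b-3p between miR-181a-1-3p (-0.55) and miR-129-2-3p (0.24). Likeness over 2 libraries describes level only.

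Other miRNAs linked to p53, which it is reported to induce or whose processing it is reported to favour, were also compared between the libraries. Of 15 listed arms, 9 were above the minimum, and of these 2 were at least 2-fold higher, 0 were lower and 7 were neither, where 10.7% of all 337 miRNAs were called higher, 20.5% lower and 31.2% in either direction. The log2 ratio was above 0 for 8 of the 9, beside 48.7% of the 337. These 9 include both arms of miR-143 and both of miR-145a. They also include the cluster partners miR-192-5p and miR-194-5p, so they are not 9 independent miRNAs. Those called higher were miR-192-5p, with 571 and 1796 reads, and its cluster partner miR-194-5p, with 43 and 107 reads and a log2 ratio of 1.23. The most abundant were miR-143-3p, whose processing p53 is reported to favour (log2 ratio 0.90), and miR-16-5p, which represses cell cycle genes (0.33). The lowest ratio was that of miR-145a-3p (-0.18), with 246 and 227 reads. The median of the 9 was 0.69, beside -0.02 for all 337 miRNAs, the arms on chromosome 12 included. miR-143 and miR-145a are also on the mesenchymal marker list, of which 5 of 11 arms were higher in ADM.

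miRNAs reported, mainly in human cells, to repress the p53 mRNA itself formed a second list. Of 6 listed, 4 were above the minimum, with 0 higher, 1 lower and 3 neither. At this number 1 call is near the background, which was 20.5% lower and 31.2% in either direction. The median log2 ratio was -0.02, like that of all 337 miRNAs. miR-125b-5p was the lower one, at 29489 RPM in BM and 10867 RPM in ADM (log2 ratio -1.44). The others were miR-30d-5p (0.13), miR-25-3p (0.59) and miR-33-5p (-0.17), the last with 13 and 12 reads.

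**Figure D4:**
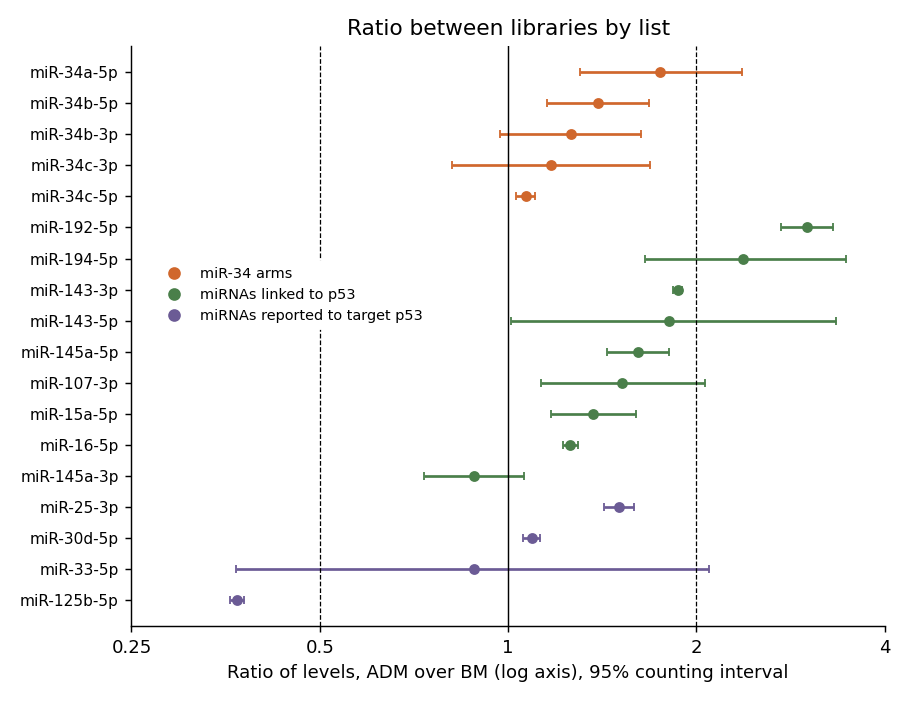
Ratio of levels in ADM over BM (log axis) with 95% counting intervals for the miR-34 arms, the miRNAs linked to p53 and the miRNAs reported to target p53, each with a mean of at least 10 RPM; dashed lines mark 2-fold differences. The miR-34 arms run from 1.75 for miR-34a-5p to 1.07 for miR-34c-5p, and miR-192-5p (3.004) and miR-194-5p (2.38) lie beyond 2-fold.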

How the data were processed

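miRanalyzer made the deposited values, per the file headers; no source used here states its version, filters or treatment of reads that match several entries. The submitters' processing notes name the build mm10. The authors deposited each miRNA as a percent of the library's reads, and in a second table the ADM/BM ratio, with 0 replaced by 0.5 read, and its log2 (headed ln2). In each column the smallest value above 0 was taken as 1 read, and every other value was a whole number of such reads (tolerance 0.001). RPM is percent times 10000. The listed miRNAs hold 99.9% of reads in each library, and 679 and 807 reads outside them stay in the denominators.

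A miRNA was called when its mean was at least 10 RPM and log2((ADM + 1)/(BM + 1)) reached 2-fold. Ratios with intervals are of percent values without the pseudocount, with an exact conditional interval; differences between ratios have a normal interval. The self-written functions were tested on simulated data. The named miRNAs are every miR-34 arm, every listed miRNA with the RefSeq seed of a miR-34 5p arm, the 3 most abundant and the extreme members of each p53 list, and, for arms above 100 RPM, the 3 nearest miRNAs and both neighbours in rank. Other list members are named in addition, after their values were seen. The members and lists were chosen with earlier results of these data known. The comparison of neighbouring hairpins was added after the data were seen. Of 628 listed miRNAs 516 matched a RefSeq mature sequence. Alternatives were other pseudocounts, level minimums, scalings, a 1.5-fold threshold and 5p arms only. Python 3.11.15, numpy 2.4.6, pandas 2.3.3, scipy 1.17.1 and matplotlib 3.10.9 were used.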

Additional observations from a re-analysis of the deposited data

How the results depend on the processing

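No paired analysis was possible because each medium had 1 library. Another scaling moved the median log2 ratio of all 337 miRNAs by -0.10 (trimmed mean of M values), 0.06 (median ratio) and 0.18 (denominator without the 10 most abundant miRNAs). Under these, the log2 ratio of miR-34c-5p was -0.0094, 0.16 and 0.27, and the ratio of the summed family share was 1.01, 1.14 and 1.23, the first and second of these ratios being chosen after the data were seen. The last denominator raised the family's share to 1.92% in BM and 2.37% in ADM by construction, and the p53-linked list to 4 miRNAs called and a median of 0.87. With it, 54 of all 337 miRNAs were called higher and 60 lower, and their median was 0.16. With 5p arms only, the family's share was 0.853% and 0.924%, and miR-34c-5p held 95.9% and 94.4% of it. Without a minimum, the count of arms at least 2-fold apart was 1 (miR-34a-3p, with 0 and 1 reads), that of the p53-linked list 5 and that of the p53-targeting list 2. With a minimum of 100 RPM the p53-linked list had 1. No share of all miRNAs called is given at these minimums, so these counts have no background to be read against. A 1.5-fold threshold gave 1, 6 and 2, where 53.1% of all 337 miRNAs were called in either direction. The median of the p53-targeting list ran from -0.12 to 0.15 and changed sign between settings. The other 64 of 85 alternatives stayed within their limits, a factor of 1.5 for counts and the counting interval for other values. With 1 library per medium, depth limits the low arms most: miR-34c-3p, with 58 and 71 reads, has a counting interval from 0.815 to 1.68.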
